A study of Mus musculus with 14 samples.

Results

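Proteasome genes were followed across 14 RNA-seq libraries of CD8+ T cells that had entered E.G7 tumors in mice; E.G7 is a lymphoma line that expresses ovalbumin. They were taken as every gene whose symbol starts with Psma, Psmb, Psmc, Psmd, Psme, Psmf or Psmg and a number, with pseudogene symbols left out. This gave 50 of the 19959 genes listed in any of the 3 deposited tables: 8 Psma genes, 8 Psmb genes and Psmb8, Psmb9 and Psmb10 apart from them, 7 Psmc, 14 Psmd and 5 Psme genes, and 5 genes of the Psmf and Psmg stems. The tables of the first 2 experiments listed all 50, and that of the third listed 49, without Psma8. Of these, 48 reached a mean of 1 FPKM (the deposited level, scaled to gene length and library size) in each experiment and were tested. The 2 that did not were Psma8, a subunit known from testis, which was listed at 0 to 0.422 FPKM, and Psmb11, a subunit known from thymic epithelium, at 0 to 0.671 FPKM. Psmc3ip carries the stem but encodes a protein of meiotic recombination and is not a subunit.

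In the first experiment CD8+ tumor-infiltrating lymphocytes (TILs) were sorted on day 21 after subcutaneous inoculation from mice of the genotype Bcl6-RFP, as Bcl6+, TIM-3+ and DN cells; what DN abbreviates is not spelled out. In the second experiment OT-I cells, whose transgenic receptor recognises an ovalbumin peptide, were recovered from E.G7 tumors at about day 8 after transfer as Prdm1-overexpressing and control (Prdm1neg) cells. In the third they were recovered at the same time as Bcl6-overexpressing and control (Bcl6neg) cells. The control and overexpressing cells had been transferred together, each group had 2 libraries, and the vector and the ages of the mice are not stated in the labels. Whether replicates are separate animals is not stated either, so p-values measure the spread between these libraries, which may be technical. The 3 TIL comparisons share libraries. In such bulk samples, fewer cells of a type and less RNA per cell cannot be told apart.

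The proteasome degrades proteins that carry ubiquitin chains. Its 20S core is a stack of rings of alpha subunits (Psma genes) around rings of beta subunits (Psmb genes), of which Psmb5, Psmb6 and Psmb7 encode the catalytic ones. Interferon gamma induces the replacements Psmb8, Psmb9 and Psmb10, which make the immunoproteasome and alter which peptides are cut for MHC class I. The 19S regulatory particle (Psmc ATPases and most Psmd subunits) binds and unfolds substrates, while Psme genes encode the activators PA28 and PA200 and Psmg genes encode chaperones that help to assemble the core. Lymphocytes express the immunoproteasome constitutively. In mouse and human cells the transcription factor Nrf1 (Nfe2l1) can raise proteasome genes through antioxidant response elements when the proteasome is inhibited.

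The stretches of up to 250 bases upstream of the start of Psmb3, Psmb5 and Psmb6 are shown because Psmb3 had the largest change of the core genes and the other two encode catalytic subunits whose levels differ in the comparisons below. They were taken from RefSeq, build GRCm38.p6, and stop before the first annotated exon; capitals mark matches to the motifs searched. Psmb3 lies at chr11:97703184-97703398 (plus strand), Psmb5 at chr14:54618023-54618245 (minus strand) and Psmb6 at chr11:70525107-70525356 (plus strand), each given 5′ to 3′ on the strand of its gene.
Psmb3: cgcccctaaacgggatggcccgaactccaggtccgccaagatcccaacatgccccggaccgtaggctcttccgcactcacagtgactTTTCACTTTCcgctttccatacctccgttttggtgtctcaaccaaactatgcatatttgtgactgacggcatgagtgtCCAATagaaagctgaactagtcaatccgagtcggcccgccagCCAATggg
Psmb5: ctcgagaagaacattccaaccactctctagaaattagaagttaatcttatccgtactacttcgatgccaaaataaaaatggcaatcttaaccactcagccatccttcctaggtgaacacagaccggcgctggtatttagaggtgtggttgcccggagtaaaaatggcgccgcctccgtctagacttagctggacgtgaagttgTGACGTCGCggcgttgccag
Psmb6: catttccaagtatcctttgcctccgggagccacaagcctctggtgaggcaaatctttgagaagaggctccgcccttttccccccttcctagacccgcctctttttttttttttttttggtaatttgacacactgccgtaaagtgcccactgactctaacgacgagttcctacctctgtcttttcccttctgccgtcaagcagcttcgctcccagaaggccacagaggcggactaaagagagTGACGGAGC
The capitals in Psmb5 and Psmb6 are matches to TGACNNNGC, the core of the antioxidant response element, 47 and 9 bases before the RefSeq start. In Psmb3 they are the core of the interferon-stimulated response element, read on the minus strand 163 bases before the start, and CCAAT, the NF-Y box, 85 and 43 bases before it. Each motif was searched on both strands in the 250 bases before the start. Proteasome genes were counted once if any of their promoters matched, while the shares of all are over single promoters, so the units differ. Of 50 proteasome genes, 42 had a RefSeq promoter, and TGACNNNGC was found in 5 of them (Psmb5, Psmb6, Psmc6, Psmd12 and Psmd9), against 10.2% of all 32851 promoters. The core of the interferon-stimulated response element was found in 3 (Psmb3, Psmd4 and Psmd9), against 2.98% of all. The gamma-activated site TTCNNNGAA was found in 2 (Psmb8 and Psmg1), against 7.02% of all. CCAAT was found in 15, against 33.8% of all. A match is a string of letters and was not tested as a binding site.

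Library totals ranged from 18309162 to 22322079 counts. The genes named in the labels followed them: Bcl6 stood at 429 and 408 CPM (TMM-scaled counts relative to library size) in Bcl6+ TILs, 14.9 and 18.2 CPM in TIM-3+ TILs and 90.8 and 94.9 CPM in DN TILs. Bcl6 had 94.2 and 67.6 CPM in Bcl6-overexpressing OT-I cells, against 4.11 and 3.84 CPM in their controls. Prdm1 had 158 and 195 CPM in Prdm1-overexpressing OT-I cells, against 110 and 90.6 CPM in theirs. Havcr2, which encodes TIM-3, stood at 1310 and 1366 CPM in TIM-3+ TILs, and at 33.3 to 202 CPM in the 4 other TIL libraries. Of the 6 CD8 T cell markers, 5 were listed (all but Trac), and the lowest value of Cd3e in any library was 70.7 FPKM. In the Prdm1 experiment the second Prdm1-overexpressing library stood apart, with core genes at a median deviation of -0.86 (log2) from the mean of the experiment. Reads could also be shared: 15 of the 50 genes overlap exons of another gene in GENCODE M21 (Psmb9 with Tap1 on the opposite strand, Psmb5 with Mir686 on the same strand), and use of strand in counting was not stated. The coding sequences of Psme2 and Psme2b match at 712 of 717 aligned bases, so their split is uncertain.

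**Figure D1:**
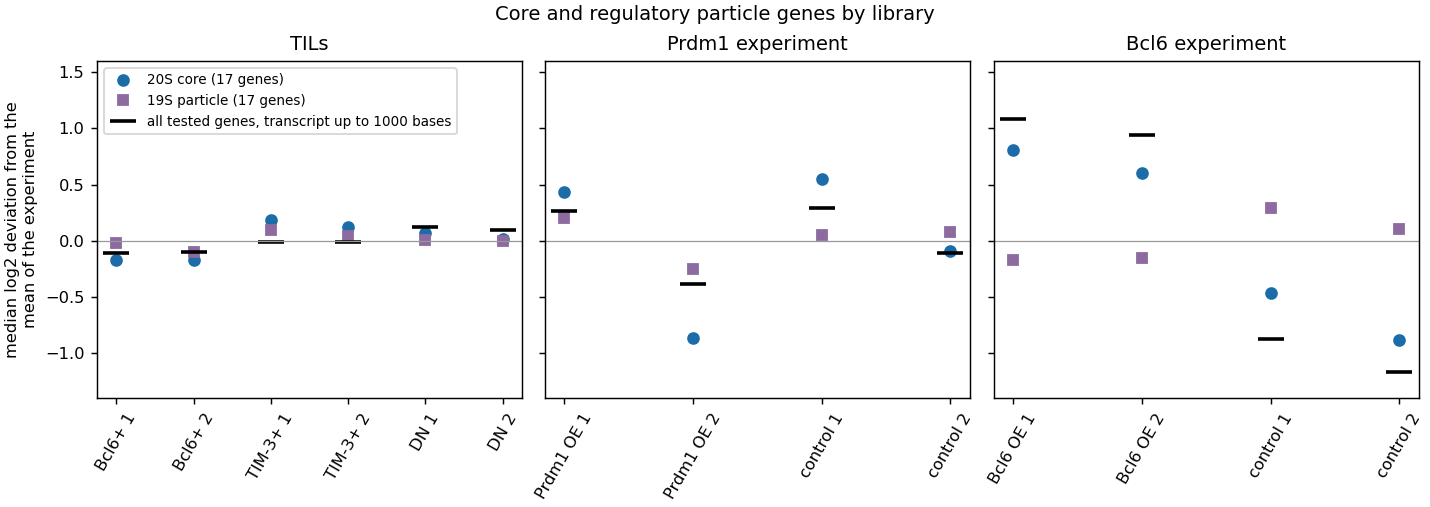
Median log2 deviation (CPM) from the mean of the experiment, for the 17 genes of the 20S core, the 17 of the 19S particle and all tested genes with a principal transcript of up to 1000 bases, 1 column a library. In the Bcl6 experiment the core stands at 0.81 and 0.61 in Bcl6-overexpressing and at -0.46 and -0.88 in control libraries. The median of the short transcripts moves the same way. In the Prdm1 experiment the core stands at 0.44 and -0.86 in Prdm1-overexpressing and at 0.55 and -0.09 in control libraries, and the groups overlap.

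On the FPKM scale the highest core gene in TILs was Psmb2, a beta subunit without catalytic activity, with 158 and 154 FPKM in Bcl6+, 202 and 213 FPKM in TIM-3+ and 184 and 172 FPKM in DN cells. Psmb8 was next, with 123 and 129 FPKM in Bcl6+, 182 and 175 FPKM in TIM-3+ and 153 and 149 FPKM in DN cells. Psmb7 was the lowest of the 17 core genes, at 21.5 to 27.96 FPKM over the 6 TIL libraries. In the 19S particle, Psmc5, an ATPase of the base, stood at 113 to 118 FPKM over the TIL libraries, and Psmc1, another, at 95.7 to 104 FPKM. The activator PA200 (Psme4) had 2.83 to 5.04 FPKM, PA28 gamma (Psme3) 8.55 to 11.7 FPKM, and the paired PA28 subunits 101 to 110 FPKM (Psme1) and 78.1 to 122 FPKM (Psme2). The lengths implied by the deposited counts and FPKM values exceeded the principal transcript: that of Psmb1 was 5003 bases, against a principal transcript of 1758 bases. Whether they merge all annotated exons of a gene was not checked. Levels of genes whose implied length far exceeds the principal transcript are thus set low beside the others.

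In Bcl6-overexpressing OT-I cells genes of the core were mostly higher than in controls, and genes of the 19S particle were lower or not called. Of the 17 core genes (Psma1 to Psma7 and Psmb1 to Psmb10), 14 were higher in Bcl6-overexpressing than in control OT-I cells, 0 were lower and 3 (Psma1, Psma3 and Psma4) were not called. Of the 17 genes of the 19S particle, 0 were higher, 8 were lower and 9 were not called. The median log2 fold change was 1.36 in the core and -0.35 in the 19S particle, beside 0.00 over all 9669 genes tested. Over the 48 genes tested, 23 were higher and 9 lower at an edgeR adjusted p under 0.05, and 48.8% of all genes tested were called in this comparison, 25.4% higher and 23.4% lower. At an unadjusted p under 0.05, 34 of the 48 genes passed, beside 55.2% of all genes. The count lower rests in part on 1 library, being 4 without control replicate 1; the count higher was 17 to 24 with each library left out in turn.

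**Figure D2:**
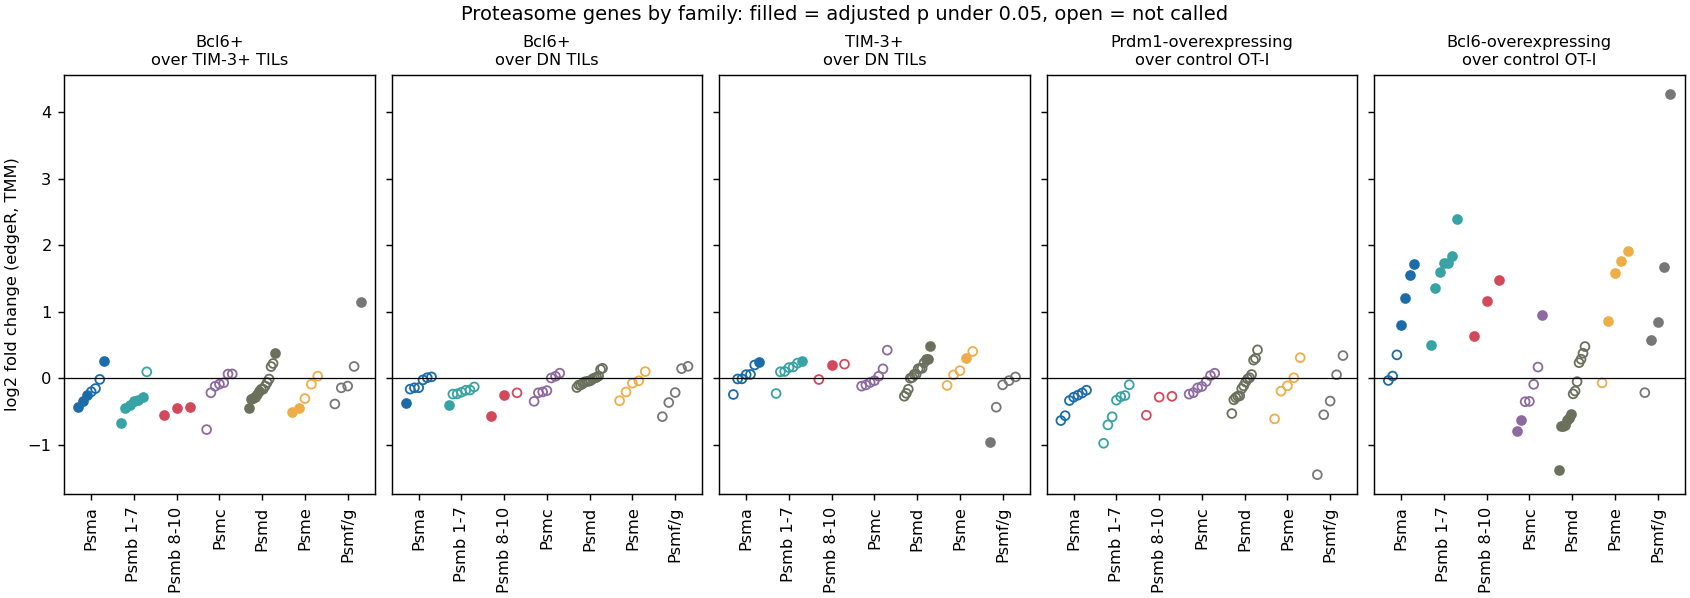
Log2 fold change (edgeR, TMM) of the 48 tested genes by family in the 5 comparisons; each point is a gene, filled where the adjusted p was under 0.05. For Bcl6-overexpressing over control OT-I cells, all 7 Psmb and 3 of 3 immunoproteasome genes are filled and above 0, and 7 of 14 Psmd genes are filled and below 0; the Prdm1 panel has 0 filled points.

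Among the beta subunits, Psmb3, a subunit without catalytic activity, stood at 564 and 446 CPM in Bcl6-overexpressing cells, against 108 and 83.7 CPM in controls. Its log2 fold change was 2.39 ± 0.19 (SE; edgeR adjusted p = 1.6e-09), and the groups did not overlap. The constitutive catalytic subunits were higher too. Psmb5 (chymotrypsin-like activity) had 225 and 211 CPM in Bcl6-overexpressing and 72.9 and 49.1 CPM in control cells, a log2 fold change of 1.84 ± 0.20. Psmb6 (caspase-like activity) had 574 and 419 CPM in Bcl6-overexpressing and 175 and 124 CPM in control cells, a log2 fold change of 1.73 ± 0.20. Psmb7 (trypsin-like activity) moved least, with 84.6 and 105 CPM in Bcl6-overexpressing and 78.5 and 55.9 CPM in control cells (0.50 ± 0.20, edgeR adjusted p = 0.048). The Psmb7 call was lost without Bcl6-overexpressing replicate 2 (adjusted p = 0.18) and without control replicate 2 (adjusted p = 0.49).

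The 3 immunoproteasome subunits rose as well. Psmb8, which replaces Psmb5, had 760 and 686 CPM in Bcl6-overexpressing cells, against 556 and 370 CPM in controls (log2 fold change 0.64 ± 0.19), and this call was lost without control replicate 2 (0.38, edgeR adjusted p = 0.31). Psmb9, which replaces Psmb6, had 417 and 346 CPM in Bcl6-overexpressing cells, against 150 and 123 CPM in controls (1.49 ± 0.18). Psmb10, which replaces Psmb7, had 259 and 189 CPM in Bcl6-overexpressing cells, against 118 and 82.6 CPM in controls (1.16 ± 0.20). For all 3 the lowest Bcl6-overexpressing library lay above the highest control library. The share of all genes tested that part in this way was not counted. Psmb8 and Psmb9 lie close together on chromosome 17 (34197721 to 34201454 and 34181987 to 34187764, mm10).

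**Figure D3:**
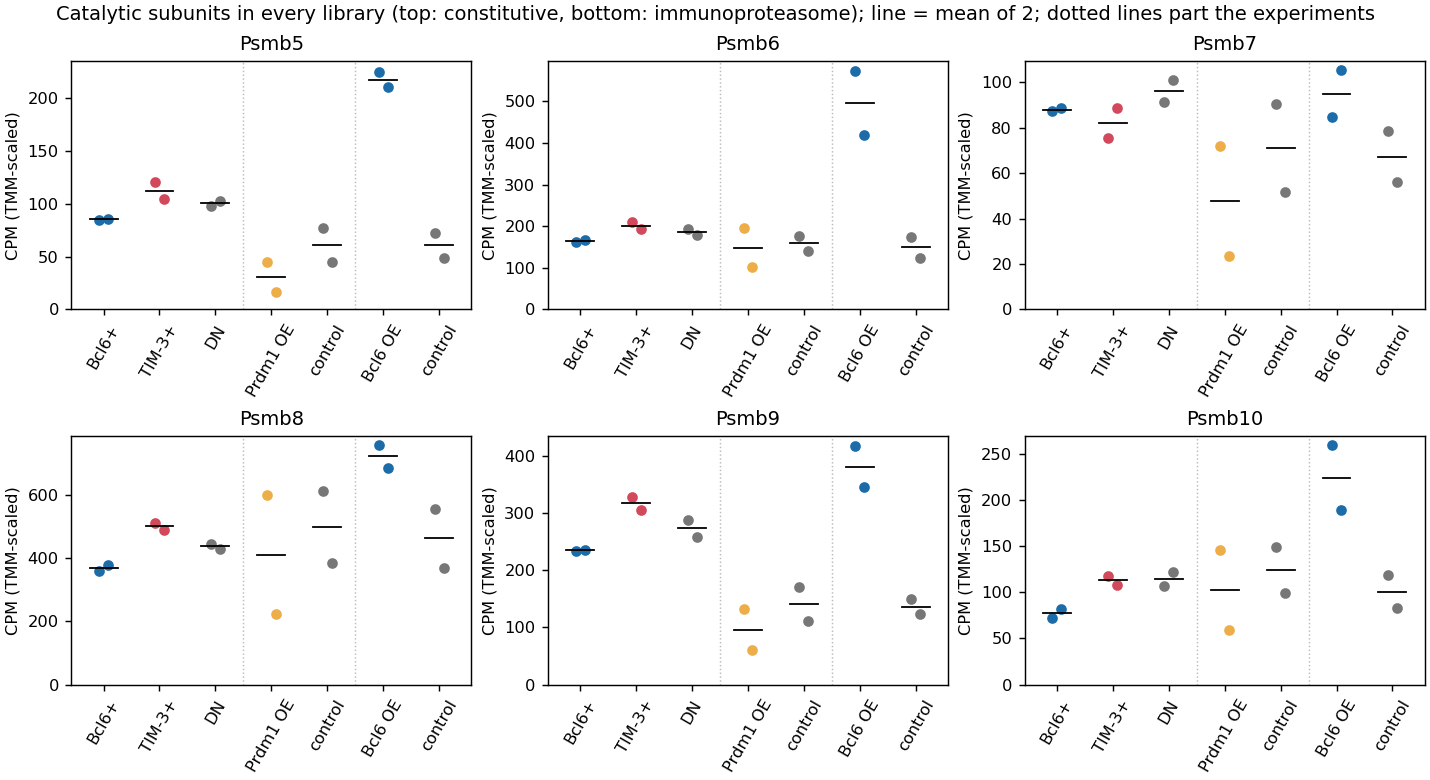
TMM-scaled CPM of the 6 catalytic subunits in every library, with a line at the mean of 2; dotted lines part the 3 experiments, which were normalised apart. Psmb5 stands at 225 and 211 CPM in Bcl6-overexpressing OT-I cells (Bcl6 OE), against 72.9 and 49.1 CPM in their controls, while in Prdm1-overexpressing cells (Prdm1 OE) the replicates lie apart.

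Of the activator genes, those of PA28 were higher. Psme1 and Psme2 (chromosome 14, 55578123 to 55581529 and 55587441 to 55591113, mm10), the interferon-induced alpha and beta subunits of PA28, had 382 and 351 CPM and 402 and 416 CPM in Bcl6-overexpressing cells, against 143 and 101 CPM and 130 and 87.3 CPM in controls. Their log2 fold changes were 1.59 ± 0.19 and 1.91 ± 0.19. Psme2b, the copy of Psme2, read 141 and 136 CPM in Bcl6-overexpressing and 48.6 and 33.0 CPM in control cells. With trends in principal transcript length and GC content removed, Psme1 (0.39) and Psme2 (0.54) stayed higher and Psme2b (0.28) was not called. Psme3, the nuclear PA28 gamma, had 105 and 108 CPM in Bcl6-overexpressing cells, against 59.9 and 57.5 CPM in controls (0.86 ± 0.18). Psme4, which encodes PA200, had 50.8 and 74.9 CPM in Bcl6-overexpressing cells, against 63.8 and 67.8 CPM in controls, and its groups overlapped (-0.07 ± 0.21). Psmf1, which encodes the inhibitor PI31, had 85.8 and 89.8 CPM in Bcl6-overexpressing cells, against 115 and 89.0 CPM in controls (-0.21 ± 0.19, edgeR adjusted p = 0.36).

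All 4 core chaperones (Psmg1 to Psmg4) were higher in Bcl6-overexpressing cells. Psmg4 had the largest change of any proteasome gene in this fit, with 34.1 and 19.5 CPM in Bcl6-overexpressing cells, against 2.03 and 0.758 CPM in controls (log2 fold change 4.27 ± 0.42). Its principal transcript has 555 bases, and with length and GC trends removed its value was 1.65, below Psma2 (2.46) and Psmb1 (1.91). The other core chaperones turned negative with those trends removed and were not called: Psmg1 (-0.28), Psmg2 (-0.24) and Psmg3 (-0.13). The calls on Psmg1 and Psmg2 were lost without control replicate 2 (edgeR adjusted p = 0.21 and 0.38). Of the 3 chaperones of the 19S base, Psmd5 was lower, with 101 and 99.9 CPM in Bcl6-overexpressing cells, against 280 and 243 CPM in controls (-1.38 ± 0.17, edgeR adjusted p = 1.4e-06), while Psmd9 and Psmd10 were not called. In the 19S particle itself the largest falls were Psmc1, an ATPase (195 and 230 CPM in Bcl6-overexpressing cells, against 392 and 339 CPM in controls; -0.79 ± 0.17), and Psmd1, a scaffold of the base (177 and 181 CPM, against 298 and 291 CPM in controls; -0.72 ± 0.16). The other lower genes were Psmc6, Psmd2, Psmd6, Psmd11, Psmd12 and Psmd14, the last encoding the deubiquitinase of the lid. Within the Psmc stem the single higher call was Psmc3ip, with 13.9 and 15.2 CPM in Bcl6-overexpressing cells, against 9.27 and 5.68 CPM in controls (0.96 ± 0.33), and it was lost without control replicate 2 (edgeR adjusted p = 0.24).

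Transcript length moved with this pattern. The principal transcripts of the 17 core genes had a median of 1183 bases (766 to 2911), against 1636 bases (1316 to 3112) for the 19S particle. Over all 670 tested genes with a principal transcript of up to 1000 bases, the median log2 fold change in this comparison was 2.19 and 82.2% were called higher; the 9 proteasome genes among them had a median of 1.76. Between 1000 and 1500 bases the median was 0.45 over 1004 genes and 0.58 over 17 proteasome genes. Across genes, the correlation of log2 fold change with log2 transcript length was -0.66 over 48 proteasome genes and -0.35 over 9533 genes, a description of points that share libraries. Grouped by coding length instead, 1428 tested genes of 600 to 900 coding bases had a median of 0.12 with 30.3% higher, and 27 proteasome genes there a median of 1.16 with 21 higher. The part of length in the proteasome result was not tested; fold changes with length trends removed are given next.

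With the trends in principal transcript length and GC content removed in each library, an alternative chosen after seeing the data, 14 of the 48 genes were higher and 17 lower. Of the 23 genes called higher, 11 remained so and 12 were not called; of the 9 called lower, 8 remained so and Psmc6 was higher (0.49). In that fit the core had 8 higher and 2 lower with a median of 0.16. The 19S particle had 1 higher and 14 lower with a median of -0.44, beside a median over all genes of -0.06. Psma2, an alpha subunit with a long principal transcript of 2911 bases, was higher in both fits (1.55 and 2.46), as were Psmb1 (1.73 and 1.91), Psmb3 (2.39 and 0.47), Psmb9 (1.49 and 0.64) and Psme3 (0.86 and 1.01). Psma3 was called only in the second (0.35 and 1.08). Psmb5 (1.84 and 0.06), Psmb6 (1.73 and -0.25), Psmb8 (0.64 and 0.07) and Psmb10 (1.16 and 0.15) were not called once the trends were removed. With gene length as implied by the deposited FPKM in its place, 16 were higher and 13 lower, and scaling to TPM, which shifted the median of all genes by -0.32, gave 20 higher and 15 lower.

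**Figure D4:**
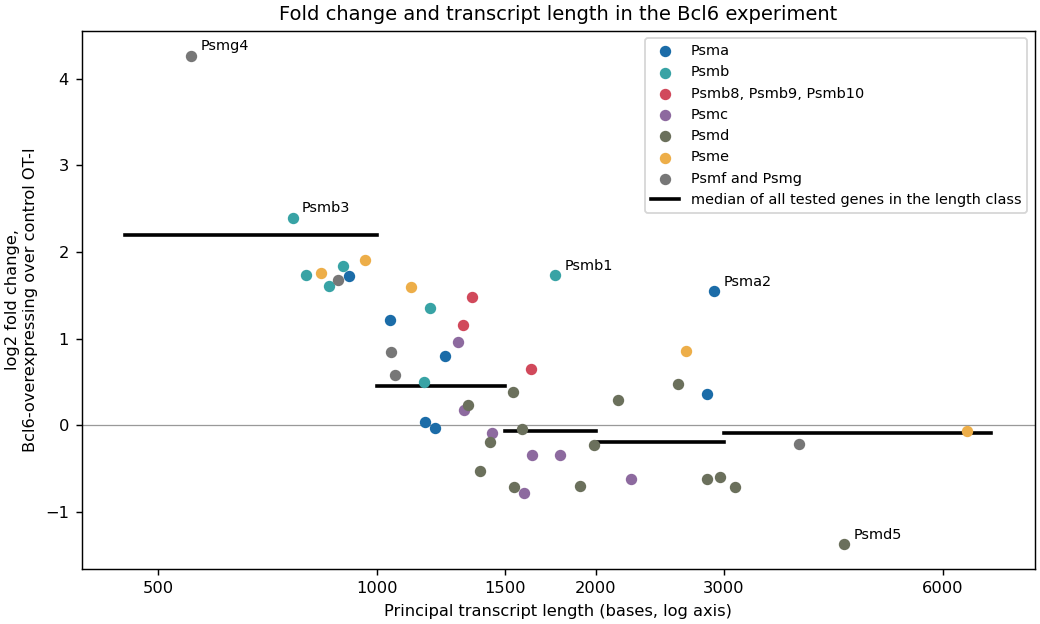
Log2 fold change in Bcl6-overexpressing over control OT-I cells against principal transcript length (bases, log axis) for 48 proteasome genes, coloured by family, with bars at the median of all tested genes in each length class. The bar up to 1000 bases stands at 2.19, with 9 proteasome genes there at a median of 1.76, while Psma2 and Psmb1 lie well above the bars of their classes.

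Markers of other cells also differed between these groups. The 9 macrophage and monocyte markers, all listed, summed to 460 and 394 FPKM in Bcl6-overexpressing cells, against 101 and 97.5 FPKM in controls. The neutrophil markers, 4 of 5 listed and Ly6g not, summed to 54.2 and 52.9 FPKM in Bcl6-overexpressing cells, against 1.75 and 0.56 FPKM in controls, and the listed erythroid markers to 17.8 and 14.7 FPKM, against 0.38 and 0.46 FPKM in controls. S100a8, Hba-a1 and Hbb-bs were at 0 in both control libraries. Other lists were lower in Bcl6-overexpressing cells. Dendritic cell markers summed to 32.8 and 28.9 FPKM, against 38.2 and 38.8 FPKM in controls. Those of CD4 and regulatory T cells summed to 21.2 and 23.2 FPKM, against 38.6 and 36.7 FPKM. Stromal and endothelial markers summed to 10.3 and 10.8 FPKM, against 16.5 and 17.9 FPKM. B cell markers overlapped (4.92 and 3.47 FPKM, against 4.07 and 3.56 FPKM). The 5 listed CD8 T cell markers summed to 1752 and 1549 FPKM in Bcl6-overexpressing cells, against 891 and 703 FPKM in controls. The part of these markers in the proteasome result was not tested, nor was that of transcript length in the marker sums.

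In TILs, core genes were mostly lower in Bcl6+ than in TIM-3+ cells, by small amounts. Of the 17 core genes, 12 were lower in Bcl6+ than in TIM-3+ TILs, 1 (Psma6) was higher and 4 were not called. The 19S particle had 5 lower and 0 higher, namely Psmd1, Psmd2, Psmd8, Psmd13 and Psmd14, and 0 of its 6 Psmc ATPases were called. Over 48 genes, 3 were higher and 19 lower, and 38.6% of all 9748 genes tested were called, 19.1% higher and 19.6% lower. At an unadjusted p under 0.05, 23 of the 48 passed, beside 47.0% of all. The median log2 fold change was -0.34 in the core, -0.12 in the 19S particle and 0.01 over all genes. Under total-count scaling and under TPM, which shift the median of all genes by 0.20 and 0.26, the split turned to 8 higher and 6 lower, and to 12 higher and 4 lower; the median of the 48 genes lay 0.20 and 0.19 below that of all genes there, and 0.20 below it under TMM. Within the 19S particle the split was 3 higher and 0 lower under total counts, and 4 higher and 0 lower under TPM. Within the core it was 1 higher and 5 lower, and 3 higher and 3 lower.

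All 3 immunoproteasome subunits were lower in Bcl6+ than in TIM-3+ TILs. Psmb8 had 359 and 379 CPM in Bcl6+, 511 and 490 CPM in TIM-3+ and 445 and 429 CPM in DN cells. Psmb9 had 235 and 236 CPM in Bcl6+, 329 and 305 CPM in TIM-3+ and 289 and 259 CPM in DN cells. Psmb10 had 72.1 and 82.1 CPM in Bcl6+, 117 and 108 CPM in TIM-3+ and 107 and 122 CPM in DN cells. For each of the 3, Bcl6+ lay below both other groups without overlap, a pattern that was not counted over all genes. Against DN cells, Psmb8 and Psmb10 were called lower and Psmb9 was not called (-0.22, edgeR adjusted p = 0.094). The log2 fold changes over TIM-3+ were -0.44 ± 0.07, -0.43 ± 0.08 and -0.55 ± 0.12 (edgeR adjusted p = 0.00010, 0.00068 and 0.0024). All 3 calls held with each TIL library left out in turn.

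Of the constitutive subunits, Psmb5 had 84.8 and 86.0 CPM in Bcl6+, 120 and 105 CPM in TIM-3+ and 98.4 and 103 CPM in DN cells (Bcl6+ over TIM-3+, -0.40 ± 0.11). Psmb6 had 163 and 167 CPM in Bcl6+, 209 and 192 CPM in TIM-3+ and 194 and 180 CPM in DN cells (-0.28 ± 0.09). Both calls were lost without TIM-3+ replicate 1 (edgeR adjusted p = 0.13 and 0.14), and that on Psmb6 also without Bcl6+ replicate 1 (adjusted p = 0.066). Psmb7 had 87.3 and 88.6 CPM in Bcl6+, 75.6 and 88.7 CPM in TIM-3+ and 91.2 and 101 CPM in DN cells, with overlap between Bcl6+ and TIM-3+ (0.10 ± 0.12). The largest fall in the core was that of Psmb3, with 154 and 161 CPM in Bcl6+, 257 and 243 CPM in TIM-3+ and 206 and 212 CPM in DN cells (-0.67 ± 0.08 over TIM-3+, edgeR adjusted p = 1.8e-05).

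The 3 genes higher in Bcl6+ than in TIM-3+ TILs were Psmg1, Psmd5 and Psma6. Psmg1, a core chaperone that pairs with Psmg2, had 41.3 and 42.7 CPM in Bcl6+, 19.4 and 18.6 CPM in TIM-3+ and 39.7 and 34.4 CPM in DN cells (1.14 ± 0.18, edgeR adjusted p = 0.00020). TIM-3+ cells were the low group for Psmg1, which was also lower in TIM-3+ than in DN TILs (-0.96 ± 0.18). Psmd5 had 136 and 150 CPM in Bcl6+, 120 and 100.5 CPM in TIM-3+ and 115 and 142 CPM in DN cells (0.38 ± 0.13 over TIM-3+). Psma6 had 172 and 153 CPM in Bcl6+, 138 and 132 CPM in TIM-3+ and 162 and 157 CPM in DN cells (0.26 ± 0.10). The Psmg1 call held with each library left out. That on Psmd5 was lost without Bcl6+ replicate 2 or TIM-3+ replicate 2 (edgeR adjusted p = 0.14 and 0.20). That on Psma6 was lost without Bcl6+ replicate 1, either TIM-3+ or either DN library (adjusted p = 0.066 to 0.22). In all, 12 of the 22 calls held with each library left out, among them Psma1, Psma5, Psmb1, Psmb2, Psmb3, Psmb4, Psmd14 and Psme2.

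Of the activators in TILs, Psme2 and its copy Psme2b differed. Psme1 had 248 and 238 CPM in Bcl6+, 236 and 238 CPM in TIM-3+ and 253 and 257 CPM in DN cells and was called in none of the 3 comparisons by edgeR. Psme2 had 161 and 147 CPM in Bcl6+, 222 and 217 CPM in TIM-3+ and 181 and 174 CPM in DN cells, lower in Bcl6+ than in TIM-3+ (-0.51 ± 0.09, edgeR adjusted p = 0.00035). Psme3 had 27.0 and 36.9 CPM in Bcl6+, 35.2 and 32.8 CPM in TIM-3+ and 33.0 and 32.6 CPM in DN cells. Psme4 had 30.5 and 32.9 CPM in Bcl6+, 43.4 and 34.8 CPM in TIM-3+ and 25.2 and 33.8 CPM in DN cells. Psmf1 had 84.8 and 92.8 CPM in Bcl6+, 76.2 and 80.5 CPM in TIM-3+ and 84.8 and 75.6 CPM in DN cells. Of Psme3, Psme4 and Psmf1, 0 were called in any TIL comparison.

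Against DN TILs, Bcl6+ cells had 0 genes higher and 4 lower: Psmb10 (-0.57 ± 0.12), Psmb3 (-0.40 ± 0.08), Psma5 (-0.37 ± 0.10) and Psmb8 (-0.25 ± 0.07). Psma5, an alpha subunit, had 101 and 102 CPM in Bcl6+ and 137 and 126 CPM in DN cells. Of all genes tested, 14.2% were called, 6.49% higher and 7.69% lower. At an unadjusted p under 0.05, 11 of the 48 genes passed by edgeR, beside 26.2% of all, and DESeq2 called 0 higher and 5 lower. The count rests on the DN libraries, with 2 lower without DN replicate 1 and 0 without DN replicate 2, and 0 of the 4 calls held with each library left out. Transcript length moved with this comparison: all 664 tested genes of up to 1000 bases had a median of -0.19 with 19.1% lower, and the 9 proteasome genes among them -0.21. The correlation of log2 fold change with log2 length was 0.58 over 48 proteasome genes and 0.11 over 9722 genes, again a description. With trends in transcript length and GC content removed, Psmb10 (-0.50) and Psmb8 (-0.22) remained lower, while Psmb3 (-0.25, edgeR adjusted p = 0.060) and Psma5 (-0.29, adjusted p = 0.069) were not called. TIM-3+ cells against DN cells had 7 higher (Psma2, Psmb3, Psmb8, Psmd11, Psmd13, Psmd14 and Psme2) and 1 lower (Psmg1), with 28.2% of all genes tested called, 14.9% higher and 13.2% lower. At an unadjusted p under 0.05, 16 of the 48 passed, beside 37.9% of all. The largest rises were Psmd14, with 208 and 191 CPM in TIM-3+ and 130 and 156 CPM in DN cells (0.48 ± 0.11), Psme2 (0.30 ± 0.09) and Psmd11, a lid subunit, with 303 and 270.4 CPM in TIM-3+ and 231 and 236 CPM in DN cells (0.30 ± 0.10). That count was 0 without DN replicate 1, 2 without DN replicate 2 or without TIM-3+ replicate 1, and 3 without TIM-3+ replicate 2. The lower count was 2 without either Bcl6+ library, and the Psmg1 call held throughout. Scaling turned the split: 1 higher and 11 lower under TPM, 1 and 7 under total counts (the median of all genes shifts by -0.19 and -0.18), and 2 and 3 under upper-quartile scaling. The filter at 5 FPKM gave 5 and 3. Other settings raised the count higher, to 18 with either length trend removed and 12 with limma on either FPKM scale, each with 1 lower.

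Proliferation and marker lists also differed between the TIL groups. The 12 proliferation genes summed to 213 and 210 FPKM in Bcl6+, 753 and 743 FPKM in TIM-3+ and 296 and 307 FPKM in DN cells. The 9 macrophage and monocyte markers, all listed, summed to 182 and 163 FPKM in Bcl6+, 47.2 and 34.4 FPKM in TIM-3+ and 101 and 102 FPKM in DN cells. The 5 listed CD8 T cell markers summed to 1528 and 1562 FPKM in Bcl6+, 2750 and 2683 FPKM in TIM-3+ and 1864 and 1849 FPKM in DN cells. Their part in the proteasome differences was not tested.

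Prdm1 overexpression gave no called change in any proteasome gene in the fit without a replicate block. By edgeR 0 of 48 genes were higher and 0 lower, 3 passed at an unadjusted p under 0.05 (Psmd3, Psmd5 and Psmg3), and DESeq2 also called 0. Of all 9947 genes tested, 1.36% were called, 1.16% higher and 0.201% lower, and 19.2% passed at an unadjusted p under 0.05. All 17 core genes had a negative log2 fold change, from -0.97 to -0.09 with a median of -0.28, beside 0.02 over all genes and -0.11 in the 19S particle. The replicates lay far apart: the core deviated from the mean of the experiment by 0.44 and -0.86 (log2) in the 2 Prdm1-overexpressing libraries, and by 0.55 and -0.09 in the controls. The median over all tested transcripts of up to 1000 bases deviated alike, by 0.27 and -0.38 in Prdm1-overexpressing and 0.29 and -0.11 in control libraries. Without Prdm1-overexpressing replicate 1, 19 genes were lower, and without any one of the other 3 libraries 0 were called. In fits without a replicate block the direction turned with single libraries left out. The median over the core was -1.13 without Prdm1-overexpressing replicate 1 and 0.14 without Prdm1-overexpressing replicate 2. It was 0.06 without control replicate 1 and -0.61 without control replicate 2. With a replicate block and all libraries, 1 gene was higher and 10 were lower, with a core median of -0.41. No label ties equal replicate numbers to the same animal. Macrophage and monocyte markers summed to 198 and 113 FPKM in Prdm1-overexpressing cells, against 350 and 313 FPKM in controls. Neutrophil markers summed to 24.4 and 30.5 FPKM, against 1.21 and 2.43 FPKM in controls. Dendritic cell markers were lower (23.4 and 26.9 FPKM, against 36.6 and 38.2 FPKM in controls). B cell markers (8.69 and 5.91 FPKM, against 4.59 and 4.92 FPKM) and erythroid markers (1.43 and 2.16 FPKM, against 0.62 and 0.54 FPKM) were higher. Those of CD8 T cells, of CD4 and regulatory T cells and of stromal and endothelial cells overlapped between groups. The part of these markers in the proteasome values was not tested.

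Psmb5 had 45.3 and 16.6 CPM in Prdm1-overexpressing cells, against 77.0 and 44.7 CPM in controls (-0.97 ± 0.47). Psmb6 had 196 and 101 CPM in Prdm1-overexpressing cells, against 177 and 141 CPM in controls. Psmb7 had 72.1 and 23.4 CPM, against 90.4 and 51.9 CPM in controls. In each of the 3 the groups overlapped. Psmb8 had 600 and 223 CPM in Prdm1-overexpressing cells, against 614 and 386 CPM in controls, Psmb9 had 132 and 60.8 CPM, against 170 and 112 CPM in controls, and Psmb10 had 146 and 59.5 CPM, against 149 and 98.8 CPM in controls. These overlapped as well. Psme1 had 125 and 48.8 CPM in Prdm1-overexpressing cells, against 167 and 97.9 CPM in controls, and Psme2 had 145 and 63.6 CPM, against 148 and 90.9 CPM in controls. For the other regulators replicates lay closer together, and Psme3 and Psmf1 did not overlap between groups. Such gaps were not counted over all genes. Psme3 had 83.3 and 75.3 CPM in Prdm1-overexpressing cells, against 59.3 and 68.4 CPM in controls, Psme4 had 72.0 and 71.8 CPM, against 68.9 and 86.4 CPM in controls, and Psmf1 had 154 and 117 CPM, against 108 and 106 CPM in controls. Psmd5 had 267 and 310 CPM in Prdm1-overexpressing cells, against 203 and 225 CPM in controls, without overlap (0.43 ± 0.16, edgeR adjusted p = 0.22).

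Ratios within a library do not depend on its scaling factor. Summed FPKM of the core over that of the 19S particle was 1.92 and 1.82 in Bcl6-overexpressing cells, against 0.74 and 0.57 in controls. It was 0.75 and 0.41 in Prdm1-overexpressing cells, against 0.91 and 0.59 in controls, which overlap. In TILs it was 1.30 and 1.40 in Bcl6+, 1.57 and 1.54 in TIM-3+ and 1.53 and 1.45 in DN cells. Psmb8 over Psmb5 was 0.90 and 0.87 in Bcl6-overexpressing cells, against 2.03 and 2.002 in controls, and 3.52 and 3.57 in Prdm1-overexpressing cells, against 2.12 and 2.30 in controls. The groups did not overlap in either OT-I experiment, and the ratio lay below the controls in the first and above them in the second. In TILs Psmb8 over Psmb5 ranged from 1.37 to 1.54 with all 3 groups overlapping. Psmb9 over Psmb6 was 0.37 and 0.42 in Bcl6-overexpressing cells, against 0.44 and 0.51 in controls, and 0.34 and 0.31 in Prdm1-overexpressing cells, against 0.49 and 0.41 in controls. Psmb10 over Psmb7 was 6.14 and 3.60 in Bcl6-overexpressing cells, against 3.02 and 2.96 in controls, with a wide gap between the Bcl6-overexpressing replicates, and 4.06 and 5.10 in Prdm1-overexpressing cells, against 3.30 and 3.82 in controls. In TILs it was 1.66 and 1.86 in Bcl6+, 3.11 and 2.45 in TIM-3+ and 2.34 and 2.41 in DN cells. The immunoproteasome genes made up 45.8% and 45.5% of the summed FPKM of the 6 catalytic genes in Bcl6-overexpressing cells, against 58.2% and 58.3% in controls. They made up 62.9% and 59.7% in Prdm1-overexpressing cells, against 60.4% and 59.1% in controls, and 53.5% to 57.1% in TILs. These ratios are given as a description and were not tested. The genes on either side of each ratio differ in principal transcript length, and the part of length was not tested. Psmb5 (principal transcript 899 bases) is shorter than Psmb8 (1628 bases), Psmb6 (798) than Psmb9 (1352) and Psmb7 (1160) than Psmb10 (1311). Core transcripts had a median of 1183 bases, against 1636 bases for the 19S particle.

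**Figure D5:**
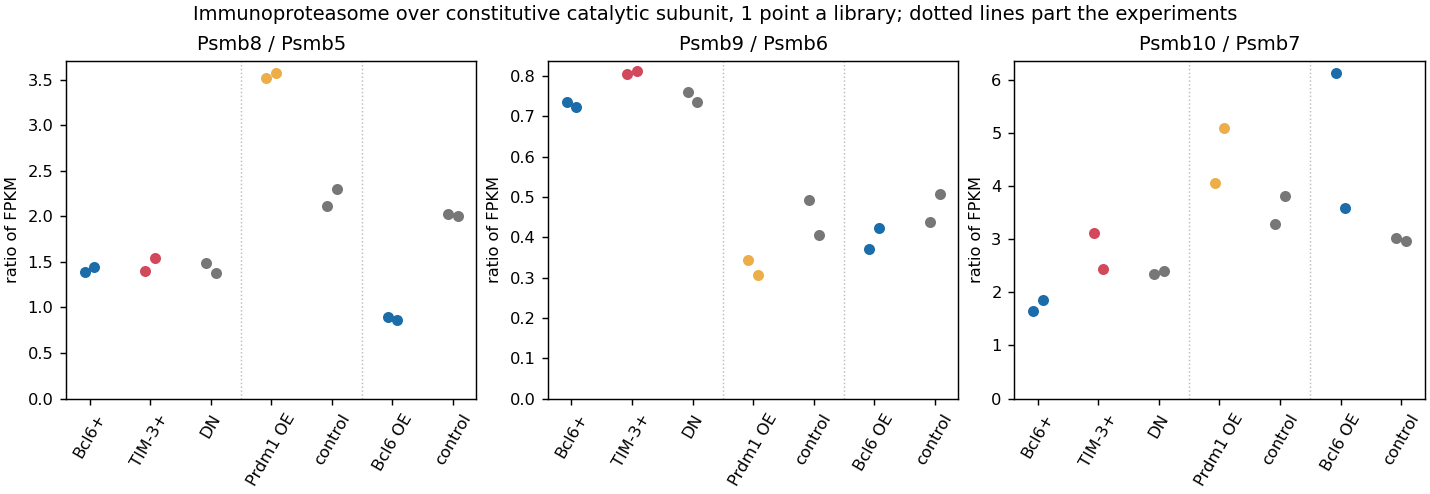
Ratio of FPKM of each immunoproteasome subunit to the constitutive subunit it replaces, 1 point a library; dotted lines part the experiments. Psmb8 over Psmb5 is 0.90 and 0.87 in Bcl6-overexpressing OT-I cells (Bcl6 OE), against 2.03 and 2.002 in their controls, and 3.52 and 3.57 in Prdm1-overexpressing cells (Prdm1 OE), against 2.12 and 2.30.

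Genes that work with the proteasome were listed apart, and their counts stand beside the shares of all genes called: 38.6% for Bcl6+ over TIM-3+, 14.2% for Bcl6+ over DN and 28.2% for TIM-3+ over DN TILs, 1.36% for Prdm1 overexpression and 48.8% for Bcl6 overexpression. Of 14 genes of antigen processing and MHC class I, 13 were lower and 0 higher in Bcl6+ than in TIM-3+ TILs, 6 lower and 1 higher in Bcl6+ than in DN TILs, and 12 higher and 0 lower in TIM-3+ than in DN TILs. Tap1, a subunit of the peptide transporter beside Psmb9, had 397 and 429 CPM in Bcl6+, 667 and 702 CPM in TIM-3+ and 493 and 499.8 CPM in DN cells (-0.73 ± 0.06, Bcl6+ over TIM-3+). B2m, the light chain of MHC class I, had 4773 and 4732 CPM in Bcl6+, 7317 and 7058 CPM in TIM-3+ and 5922 and 5738 CPM in DN cells (-0.60 ± 0.03). In Bcl6-overexpressing OT-I cells 2 of the 14 were higher and 5 lower. B2m, with a principal transcript of 860 bases, had 4461 and 4456 CPM there, against 2042 and 1479 CPM in controls (1.34 ± 0.19). Canx, a chaperone of MHC class I folding, had 413 and 543 CPM in Bcl6-overexpressing cells, against 900 and 830 CPM in controls (-0.86 ± 0.18). Prdm1-overexpressing cells had 0 of 14 called by edgeR.

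Of 15 tested interferon response genes, 5 were lower and 1 higher in Bcl6+ than in TIM-3+ TILs, 11 lower and 0 higher in Bcl6+ than in DN TILs, and 6 lower and 0 higher in TIM-3+ than in DN TILs. Ifit3, an interferon-induced antiviral gene, had 3.48 and 3.82 CPM in Bcl6+, 5.90 and 6.23 CPM in TIM-3+ and 32.8 and 33.3 CPM in DN cells. In Bcl6-overexpressing cells 2 of 14 were higher (Bst2 and Isg15) and 8 lower. The one call in Prdm1-overexpressing cells was Ifit1, with 321 and 361 CPM, against 122 and 158 CPM in controls (1.29 ± 0.18).

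Cofactors outside the symbol rule included Sem1, a small lid subunit, and Pomp, a core assembly factor. In Bcl6-overexpressing cells 6 of 16 cofactors were higher and 2 lower, near the share of all genes called there (48.8%). Sem1 had 176 and 129 CPM there, against 10.3 and 8.19 CPM in controls (4.04 ± 0.23). Pomp had 246 and 239 CPM there, against 71.4 and 50.8 CPM in controls (1.99 ± 0.19). These values come from the fit without length trends removed, and length moved with this comparison. Elsewhere, Bcl6+ over TIM-3+ had 1 higher (Ube3c) and 3 lower (Uchl5, Zfand2a and Pomp), Bcl6+ over DN had 1 higher (Ecpas), and Prdm1 overexpression had 1 higher (Ubqln1). Of 8 ubiquitin and E1 enzyme genes, 4 were higher and 2 lower in Bcl6-overexpressing cells. Rps27a, which encodes ubiquitin fused to a ribosomal protein and has a principal transcript of 791 bases, had 391 and 512 CPM there, against 24.2 and 22.0 CPM in controls (4.29 ± 0.20). In TILs Rps27a had 174 and 199 CPM in Bcl6+, 201 and 187 CPM in TIM-3+ and 458 and 418 CPM in DN cells.

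Of 12 Nrf1 pathway genes tested in TILs, 2 were higher and 1 lower in Bcl6+ than in TIM-3+ cells, 1 was higher in Bcl6+ than in DN cells, and 1 was higher and 3 lower in TIM-3+ than in DN cells. Nfe2l1 itself, the factor that induces proteasome genes, had 128 and 112 CPM in Bcl6+, 87.7 and 76.3 CPM in TIM-3+ and 91.8 and 92.6 CPM in DN cells (0.55 ± 0.12, Bcl6+ over TIM-3+). Its relative Nfe2l2 had 65.1 and 68.4 CPM in Bcl6+, 32.0 and 29.8 CPM in TIM-3+ and 69.8 and 69.9 CPM in DN cells (1.11 ± 0.14, Bcl6+ over TIM-3+). In Bcl6-overexpressing cells 2 of 13 were higher and 3 lower. Ngly1, the glycanase that activates Nrf1, was lower, with 41.7 and 59.9 CPM, against 144 and 163 CPM in controls (-1.60 ± 0.20). In Prdm1-overexpressing cells 0 of 12 were called by edgeR. The 12 proliferation genes were all lower in Bcl6+ than in TIM-3+ TILs and all higher in TIM-3+ than in DN TILs, with 10 lower in Bcl6+ than in DN TILs. In Bcl6-overexpressing cells 2 were higher and 7 lower.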

How the data were processed

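Per the file headers, the deposited tables hold a raw count and an FPKM value per gene and library; the authors made both. For TILs the submitters' processing notes list DESeq2, edgeR, featureCounts, Subread and Bowtie2; for OT-I cells they list RSEM, DESeq2, HISAT2 and featureCounts. The build is mm10. Their versions, roles and use of strand were not stated.

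The proteasome genes and companion lists were chosen with earlier results of these data known. Deposited counts were tested with edgeR 4.0.16 (quasi-likelihood, TMM, two-sided, R 4.3.3) over all genes averaging 1 FPKM or more in the fit, with Benjamini-Hochberg adjustment over all genes and a threshold of 0.05. The 6 TIL libraries shared 1 fit; each OT-I experiment had its own, and nothing was tested across experiments. SE was taken as the size of the log2 fold change divided by the root of F. The biological coefficient of variation was 0.149, 0.227 and 0.164 in the TIL, Prdm1 and Bcl6 experiments, and the test was tried on simulated data. CPM (counts scaled to library size) compares a gene between libraries, FPKM compares genes.

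Alternatives were DESeq2 1.42.0, other scalings, limma 3.58.1 on log2(FPKM + 1), log2(FPKM + 0.1) and log2(TPM + 1), other filters on low values, removal of length and GC trends, a replicate block and leaving out each library. Lengths come from the GENCODE M21 principal transcript (GRCm38), promoters from RefSeq. Values per library are given for the catalytic subunits, activators and Psmf1, for the 3 largest called changes each way per comparison and for calls against their family. From each companion list, up to 4 called genes with the smallest p could be named. Some results are not reported here.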

Additional observations from a re-analysis of the deposited data

How the results depend on the processing

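DESeq2, upper-quartile scaling and the 5 FPKM filter kept the counts within 1.5 times of those reported in the Bcl6+ over TIM-3+, Bcl6+ over DN and both OT-I comparisons. Counts of called proteasome genes that moved further are grouped here; the cause was not tested. Bcl6+ over TIM-3+ had 1 higher with gene length and GC trends removed and 1 without a filter, 12 higher and 4 lower on TPM, and 8 higher and 6 lower on total counts. Bcl6+ over DN had 2 lower with transcript length and GC trends removed. TIM-3+ over DN had 18 higher with either length trend removed, 12 with limma on either FPKM scale, 1 on TPM, 1 on total counts and 2 on upper-quartile scaling, and 3 lower at 5 FPKM, 11 on TPM, 7 on total counts and 3 on upper-quartile scaling. Bcl6 overexpression had 14 higher and 17 lower with transcript length and GC trends removed, and 15 lower on TPM. Prdm1 overexpression had 2 lower on TPM. With each library left out in turn, the ranges were 1 to 3 higher and 13 to 19 lower (Bcl6+ over TIM-3+), 0 to 4 lower (Bcl6+ over DN), 0 to 7 higher and 1 to 2 lower (TIM-3+ over DN), 17 to 24 higher and 4 to 9 lower (Bcl6 overexpression), and 0 to 19 lower (Prdm1 overexpression); a lone sample was assumed to vary like the others. Same-numbered libraries correlated at 0.015 to 0.036 (TILs), 0.28 (Prdm1) and -0.055 (Bcl6), and no label ties numbers to animals; with the replicate block, Prdm1 overexpression had 1 higher and 10 lower, and the other counts stayed as they were.

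Directions that turned, as log2 fold changes: in Bcl6+ over TIM-3+ on TPM, Psma2 0.018, Psma4 0.25, Psmd2 0.079 and Psmd4 0.25, and Psmd2 0.0039 on total counts. In TIM-3+ over DN with transcript length trends removed, Psma7 0.22. In Bcl6 overexpression with transcript length trends removed, Psma4 -0.51, Psmb6 -0.25, Psmb7 -0.25, Psmc5 -0.50, Psmc6 0.49, Psmd4 -0.60, Psmg1 -0.28, Psmg2 -0.24 and Psmg3 -0.13. In the same comparison with gene length trends removed, Psma5 -0.34, Psmb5 -0.30, Psmc5 -1.04, Psmc6 0.19, Psmd11 0.064, Psme2b -0.084, Psmg1 -0.39 and Psmg2 -0.034.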
